A study of Mus musculus with 2 samples.

Results

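The integrated stress response is a pathway by which cells slow protein synthesis and switch on a repair programme when amino acids run short, unfolded protein collects, heme is lacking or viral RNA appears. Each of these stresses activates a kinase that phosphorylates the translation factor eIF2, which lowers general translation while the messenger RNA of the transcription factor ATF4 is translated more. ATF4 pairs with other leucine zipper proteins and induces genes for amino acid synthesis and import, and, where the stress lasts, the transcription factor CHOP (encoded by Ddit3), which is known for its part in stress-related cell death. In red cell precursors the kinase HRI, encoded by Eif2ak1, couples this pathway to heme supply.

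The 10 genes described here, among 32286 features in the count matrices, were listed by symbol. They are the transcription factor genes Atf4, Ddit3 and Atf3, the regulators Trib3, Sesn2, Ddit4 and Chac1, and the amino acid synthesis genes Asns, Phgdh and Psat1. Ddit3 was put on the list because it led the more abundant genes of erythroid cells by ratio, so its values there, and those of the other members in the same cells, chose or could have chosen them; they are given as a description and support nothing. All 10 members were found by symbol, and the values of each are given whatever their size.

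The series holds 2 droplet single-cell libraries of mouse bone marrow, 1 for each group. The control library, which the submitters titled WT, was from the genotype Mx1Cre+/-;Rosa26+/+, and the MYC library was from Mx1Cre+/-;Rosa26LSL-MYC/LSL-MYC, in which Cre removes a stop cassette in front of a MYC transgene. Both groups therefore carried Mx1-Cre, an interferon-inducible Cre that acts in blood stem cells, in their descendants and in some other tissues. The treatment that induced Cre, the age and the number of animals behind each library are not given in the sources used here, and the study's stated question was how gene expression in marrow blood cells differs after MYC overexpression in stem cells. With 1 library per group there was no replicate check: no p-value was computed, and every interval below is an exact 95% interval that covers counting error only.

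After filters on cells, 14903 control and 12540 MYC cells were kept, with medians of 5343 and 6016 unique molecular identifiers (UMIs, each standing for 1 captured RNA molecule) per cell. The libraries shared 97 cell barcodes, 79 of them among kept cells. The feature named MYC had 0 UMIs in the control library and 289 in the MYC library, of which 8 were in erythroid cells and 133 in mature neutrophils. Clusters were called by the type whose marker list scored highest, so each class is erythroid-like, monocyte-like and so on, and the plain names below mean that. A further 2602 control and 2764 MYC cells, in clusters of very low UMI content, were left unnamed. Levels are UMIs of a gene scaled to 1e+06 UMIs of a class (counts per 1e+06, CPM), and ratios are the MYC library over the control library, given only for the 10 of 15 classes with at least 100 cells in each. A gene with at least 50 UMIs over both libraries in a class was counted as higher or lower where the ratio was at least 1.5-fold.

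ATF4 and its partners of the C/EBP family bind a composite element whose core reads TGATGNAA, where N is any base. This motif was searched on both strands in windows from 250 bases before to 50 after each RefSeq start site (build GRCm38.p6), and it was present in 4 of the 11 windows of the 10 members and in 1304 of the 32851 windows of all genes (3.97%). The matches are shown because they fall in 4 members of different roles: the transcription factor gene Atf3, the pseudokinase gene Trib3, the synthetase gene Asns and the glutathione-degrading enzyme gene Chac1. Capitals mark the letters of the motif or of its reverse complement. Each stretch is written 5′ to 3′ on the strand of its gene.
Atf3: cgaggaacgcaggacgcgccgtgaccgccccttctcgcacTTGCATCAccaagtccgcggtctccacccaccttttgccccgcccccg
Trib3: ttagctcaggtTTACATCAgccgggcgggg
Asns: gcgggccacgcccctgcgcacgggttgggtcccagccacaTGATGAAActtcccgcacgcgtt
Chac1: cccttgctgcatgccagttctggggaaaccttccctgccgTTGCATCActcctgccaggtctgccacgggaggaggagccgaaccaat
The Atf3 stretch lies at chr1:191183396-191183483 on the minus strand, with the match beginning 110 bases before the start site. The Trib3 stretch lies at chr2:152344028-152344057 on the minus strand, and its match begins 14 bases after the start site. The Asns stretch lies at chr6:7693210-7693272 on the minus strand, with the match 23 bases before the start site. The Chac1 stretch lies at chr2:119351009-119351096 on the plus strand, with the match 193 bases before the start site. These matches are letters in a window and not measured binding, and a window with no match says only that these letters were not in it.

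In erythroid cells, the red cell precursors, every member with enough UMIs was higher in the MYC library. The class held 1465 control and 579 MYC cells, 9.83% and 4.62% of kept cells, with medians of 10811 and 8112 UMIs per cell. All 9 members with at least 50 UMIs were at least 1.5-fold higher, and the tenth, Atf3, had 31 UMIs in all. The median log2 ratio of the 9 was 1.45, beside -0.05 over the 10034 features tested, of which 13.9% were called higher and 14.8% lower. Since this contrast chose the list, nothing is read from that count. With the 20 most abundant genes left out of the totals, 9.38% of features were higher and 22.2% lower, and the 9 members were still called.

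Among the transcription factors, Atf4 (chromosome 15, 80255184 to 80257541, build GRCm38), which encodes the effector of the pathway, had 3924 UMIs in control and 2138 in MYC erythroid cells. Its level was 174.5 CPM (169.1 to 180.1) in control and 289.5 CPM (277.4 to 302.1) in MYC, a log2 ratio of 0.73 (0.65 to 0.81). This was the smallest ratio of the 9. Because ATF4 is regulated largely at translation, its RNA level is not a measure of its protein.

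Ddit3 (chromosome 10, 127290774 to 127296288), the gene of CHOP, went from 786 UMIs in control to 1324 in MYC erythroid cells, although the MYC class held fewer cells. Its level was 35.0 CPM (32.6 to 37.5) in control and 179.3 CPM (169.8 to 189.2) in MYC, a 5.13-fold ratio (4.69 to 5.61) and a log2 ratio of 2.36 (2.23 to 2.49). Among the 1252 features with a mean of at least 100 CPM in erythroid cells it ranked 1 by ratio, and among all 10034 tested it ranked 25. A further feature that carries the name Ddit3, whose annotated span lies inside the first, had 0 UMIs in both libraries.

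Atf3 (chromosome 1, 191170296 to 191218039), a stress-inducible repressor of the same family, was scarce in erythroid cells, with 12 UMIs in control and 19 in MYC. Its levels were 0.53 CPM and 2.57 CPM, and the log2 ratio of 2.27 had an interval of 1.15 to 3.44.

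Of the 4 regulators, Trib3 and Chac1 had the largest ratios of all the members. Trib3 (chromosome 2, 152337422 to 152344032) encodes a pseudokinase that binds ATF4 and CHOP and restrains them. It had 16 UMIs in all control erythroid cells and 671 in MYC erythroid cells. Per class this was 0.71 CPM and 90.9 CPM, with a log2 ratio of 6.996 (6.29 to 7.81), which ranked 3 of the 10034. Erythroid cells held 62.1% of all Trib3 UMIs of the MYC library and 44.4% of its Ddit3 UMIs, against 32.1% of the Ddit3 UMIs in control.

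Chac1 (chromosome 2, 119351229 to 119354381), whose enzyme breaks down glutathione, had 9 UMIs in control and 43 in MYC. Its level was 0.40 CPM in control and 5.82 CPM in MYC, a log2 ratio of 3.86 (2.81 to 5.08) and rank 7. Sesn2 (chromosome 4, 132492032 to 132510501) encodes a leucine-sensing inhibitor of the growth kinase complex mTORC1. It went from 338 UMIs, 15.03 CPM, to 272 UMIs, 36.8 CPM, with a log2 ratio of 1.29 (1.06 to 1.53). Ddit4 (chromosome 10, 59949669 to 59951834), also known as REDD1 and another inhibitor of mTORC1, had 34 and 36 UMIs. Its levels of 1.51 and 4.87 CPM gave a log2 ratio of 1.69 (0.97 to 2.41).

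The synthesis genes were 1.97-fold to 2.72-fold higher. Asns (chromosome 6, 7675169 to 7693254), the enzyme that makes asparagine, went from 2544 UMIs, 113.2 CPM, to 1647 UMIs, 223.0 CPM, a log2 ratio of 0.98 (0.89 to 1.07). Phgdh (chromosome 3, 98313170 to 98339990), the first enzyme of serine synthesis from glucose, was at 40.4 CPM from 909 UMIs and 110.1 CPM from 813, a log2 ratio of 1.45 (1.31 to 1.58). Psat1 (chromosome 19, 15904678 to 15947337), which catalyses the next step, was at 17.7 CPM from 398 UMIs and 41.7 CPM from 308, a log2 ratio of 1.24 (1.02 to 1.45). The intervals of these 3 ratios all lie above 0.

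**Figure D1:**
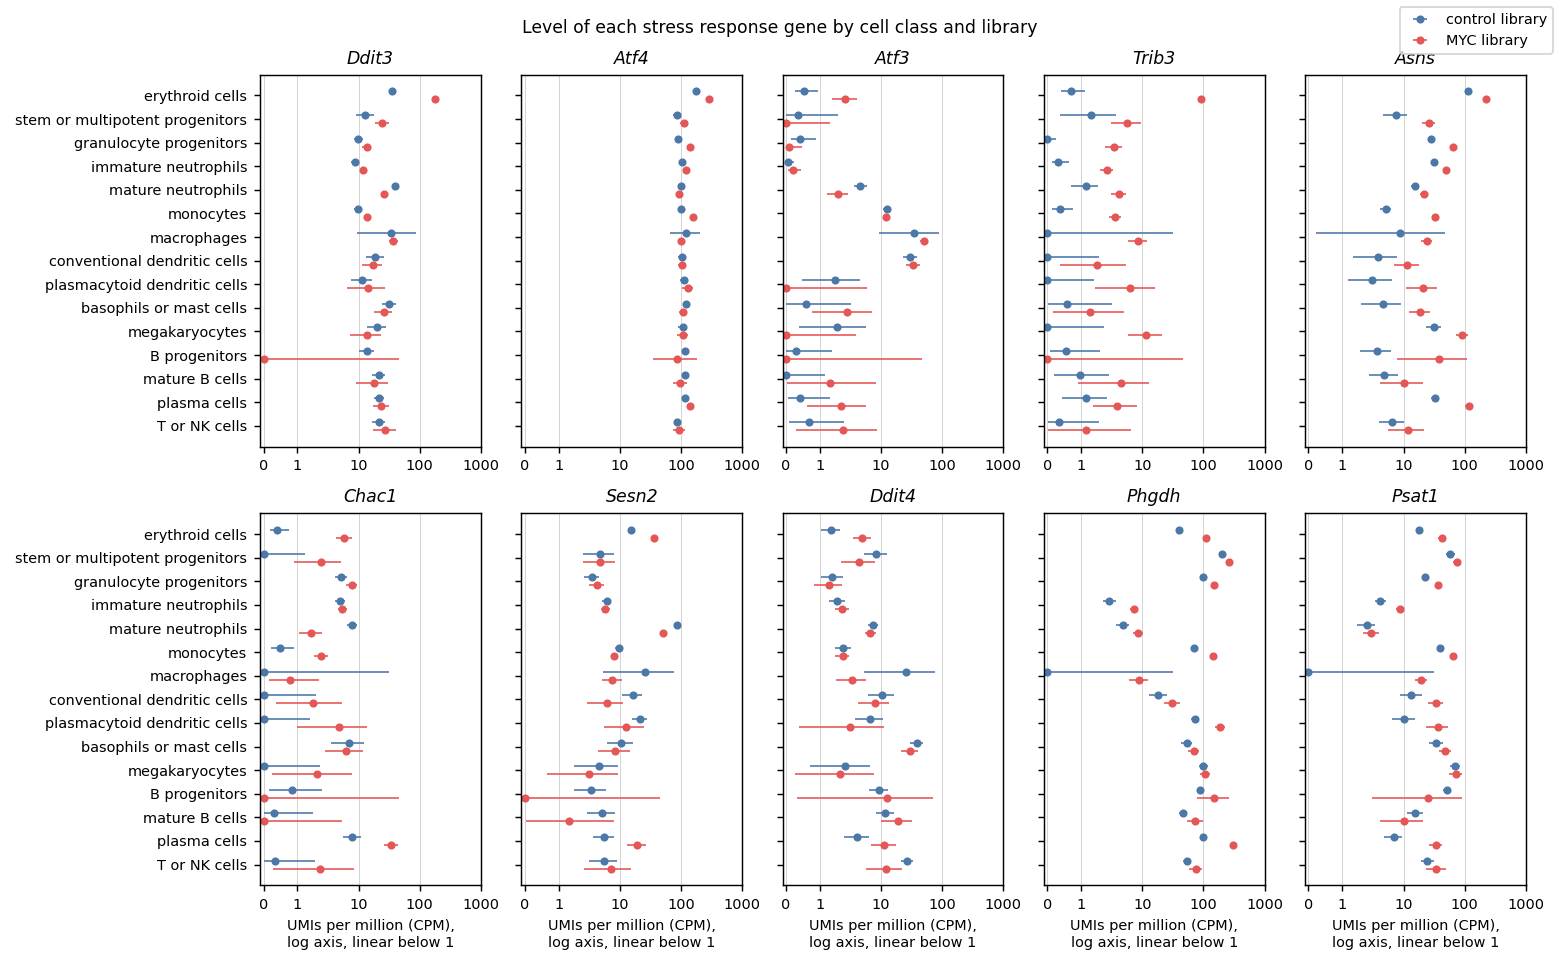
Level of each of the 10 genes in CPM (horizontal axis, log scale, linear below 1) in each cell class (vertical axis) for the control and MYC libraries, with exact 95% Poisson intervals. Trib3 stands at 0.71 CPM in control and 90.9 CPM in MYC erythroid cells, whereas Atf3 is highest in macrophages and conventional dendritic cells in both libraries.

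The erythroid class was made of 4 clusters that differ in depth and in maturity markers. Cluster 17 scored as early, with Car1 among its leading genes, and held 268 control and 101 MYC cells. Cluster 9 scored as early too and held 704 and 181 cells. Cluster 13 scored as late with 391 and 140 cells at medians of 6272 and 2449 UMIs, and cluster 21 scored as late with 102 and 157 cells at medians of only 1662 and 1644 UMIs. The MYC library thus had a larger share of its erythroid cells in the low-depth cluster 21.

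Ddit3 was higher in the MYC library in all 4 clusters, and the gap was narrowest in the earliest. In cluster 17 it was at 23.3 CPM in control and 57.8 CPM in MYC, a log2 ratio of 1.31 (1.01 to 1.60). In cluster 9 it stood at 49.2 and 278.4 CPM with a log2 ratio of 2.50 (2.34 to 2.66). In cluster 13 they were 15.1 and 388.7 CPM, a log2 ratio of 4.69 (4.19 to 5.23), and in cluster 21 they were 17.4 and 139.0 CPM, a log2 ratio of 3.002 (2.04 to 4.12). In control cells Ddit3 peaked in cluster 9, and in MYC cells it peaked in cluster 13. The intervals of clusters 17, 9 and 13 do not overlap, but these clusters were defined on the same cells, so this too is a description.

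The MYC levels of Trib3 ranked the 4 clusters in the same order as those of Ddit3. Control cells had 2, 11, 3 and 0 UMIs in clusters 17, 9, 13 and 21, and MYC cells had 52, 418, 133 and 68. The MYC levels were 15.7, 144.6, 203.5 and 127.8 CPM in that order. Trib3 was thus near absent from each control cluster and present in each MYC cluster, with its lowest MYC level in the early cluster 17.

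The other members split by stage. Sesn2 had a log2 ratio of 0.25 (-0.30 to 0.78) in cluster 17, which does not exclude equal levels, and of 1.42, 2.75 and 2.26 in clusters 9, 13 and 21. Atf4 had ratios of 0.24, 1.01, 1.14 and 1.06 in the same order, and Asns of 0.54, 1.37, 1.62 and 1.75. The serine synthesis genes did not follow this order. Phgdh was higher in clusters 17, 9 and 13 (1.20, 2.31 and 1.495) and lower in cluster 21, at -1.47 (-2.30 to -0.70). Psat1 was at 0.92 and 2.07 in clusters 17 and 9, and its intervals in clusters 13 and 21 include 0 (-0.57 to 2.78 and -1.91 to 0.32). With the clusters weighted equally, an alternative added after the data were seen, the class ratios of Phgdh and Psat1 were 0.54 and 0.53 and no longer reached 1.5-fold, and that of Ddit3 was 3.04. Without cluster 21, an alternative added likewise, all 9 members were still called higher.

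**Figure D2:**
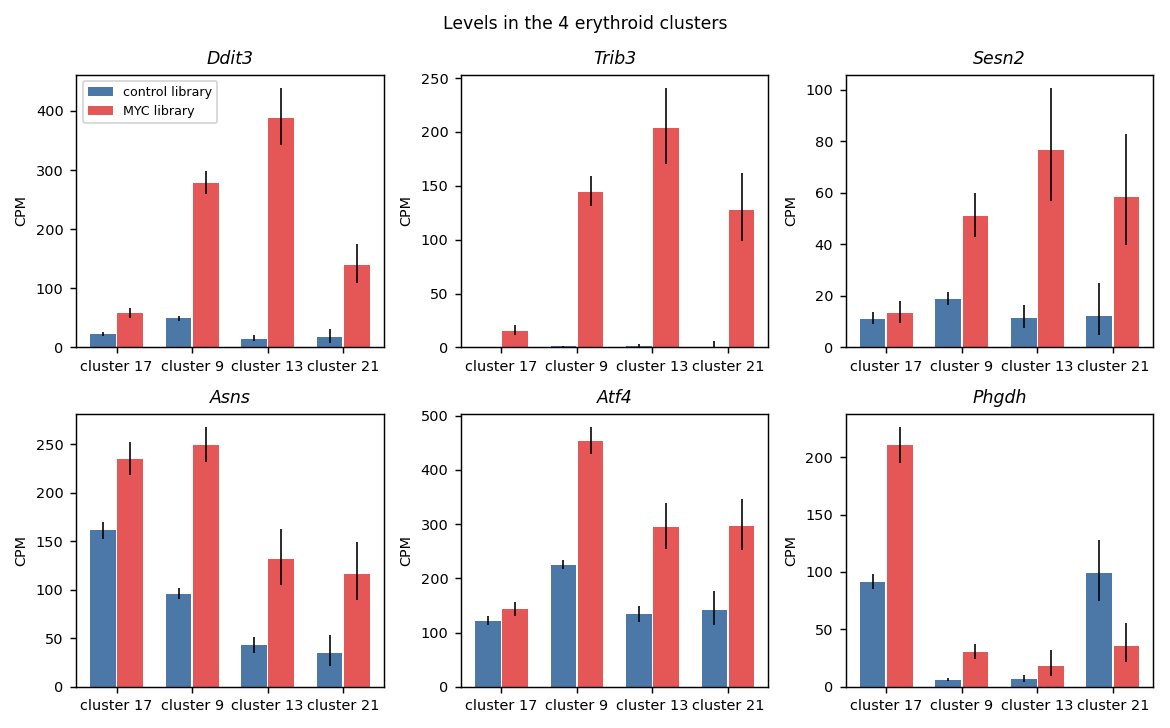
Levels in CPM (vertical axis, from 0) of members in the 4 erythroid clusters, ordered from cluster 17 to cluster 21, in the control and MYC libraries; bars are cluster sums and error bars exact 95% Poisson intervals. Ddit3 in MYC cells is at 57.8 CPM in cluster 17 and 388.7 CPM in cluster 13, and Trib3 is near 0 in every control cluster.

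The share of erythroid cells with a UMI was compared after each cell was thinned to 2000 UMIs, which left out 158 control and 162 MYC cells of lower depth and kept 1307 and 417. Ddit3 was seen in 5.81% of control and 30.2% of MYC cells (33.5% and 57.7% without thinning). Trib3 was seen in 23.7% of MYC cells (19.7 to 28.1) and in 0 of 1307 control cells, a count whose limit of 3 cells is 0.23% and bears on cells with a UMI at this depth, not on expression. Thinning is a random draw: averaged over all draws the shares were 6.76% and 32.7% for Ddit3 and 0.18% and 21.3% for Trib3, and without thinning 0.89% of control and 42.7% of MYC cells had a Trib3 UMI. Atf4 was seen in 29.8% and 49.4%, Asns in 13.3% and 30.9%, Sesn2 in 2.98% and 11.5%, Phgdh in 4.59% and 12.7%, and Psat1 in 2.22% and 5.76%. The higher class levels therefore went with more cells in which the gene was seen. Atf3, Chac1 and Ddit4 were each seen in under 1% of cells of both libraries, too few to compare. As a background, T or NK cells, of median depths 6440 and 4456 UMIs, gave 4.50% and 7.32% for Ddit3 and 0% in both libraries for Trib3, and immature neutrophils gave 1.87% and 2.23% for Ddit3 and 0.09% and 0.62% for Trib3. The control erythroid share of Ddit3 is close to the T or NK share, while the MYC erythroid share is above both.

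By cluster, Ddit3 was seen in the same draw in 8.88% of control and 37.0% of MYC cells of cluster 9 and in 1.23% and 49.3% of cluster 13. The cluster 13 shares rest on 324 of 391 control and 75 of 140 MYC cells, since the shallower cells were left out. In cluster 21 it was seen in 0 of 41 control cells and 12 of 63 MYC cells. In cluster 17 the shares were 4.10% (1.98 to 7.41) and 10.2% (5.003 to 18.0), and those of Atf4 were 16.8% (12.3 to 22.1) and 27.6% (19.01 to 37.5); the intervals of both genes overlap there. Averaged over all draws, the Ddit3 shares of clusters 17, 9, 13 and 21 were 4.25%, 9.72%, 2.77% and 2.84% in control and 11.4%, 42.7%, 44.9% and 22.5% in MYC. At least 3 of the 10 genes were seen together in 24.0% of MYC and 0.99% of control erythroid cells, and none was seen in 17.5% and 52.3%. Ddit3 and Trib3 were seen together in 48 MYC cells, 11.5%, and in 0 control cells.

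Within the MYC library, cells that had a Ddit3 UMI more often had a Trib3 UMI. Trib3 was seen in 38.1% (29.6 to 47.2) of the 126 cells with Ddit3 and in 17.5% (13.3 to 22.4) of the 291 without. Inside cluster 9 alone the shares were 41.8% (29.8 to 54.5) of 67 cells and 28.1% (20.1 to 37.3) of 114, and there the intervals overlap. Sesn2 was at 18.3% with and 8.59% without Ddit3 over the class, and at 19.4% (10.8 to 30.9) and 10.5% (5.56 to 17.7) inside cluster 9, where the intervals overlap too. Asns was at 33.3% and 29.9% over the class, and Phgdh at 7.14% and 15.1%. Cells of 1 library are not replicates, and the clusters' different make-up enters the class values.

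**Figure D3:**
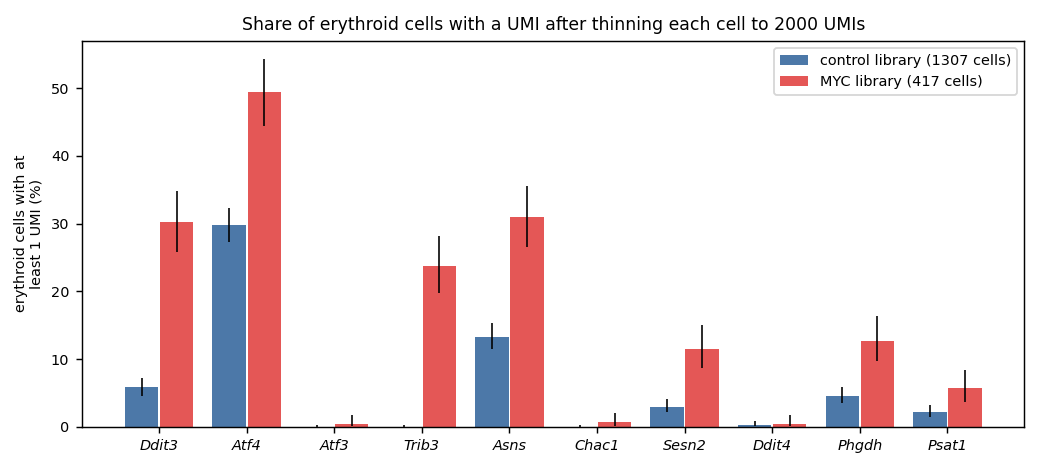
Share of erythroid cells with at least 1 UMI of each gene (vertical axis, percent, from 0) after thinning every cell to 2000 UMIs, for 1307 control and 417 MYC cells; error bars are exact 95% binomial intervals. Trib3 is at 0% in control and 23.7% in MYC, and Ddit3 at 5.81% and 30.2%.

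Other transcripts of erythroid cells differed between the libraries as well, and their part in these results was not tested. The summed level of 7 immature neutrophil markers was 3438 CPM in control and 5375 CPM in MYC erythroid cells, with 0 of the 7 at 0 UMIs, late erythroid markers summed to 93286 and 100484 CPM, early erythroid markers to 3183 and 3797 CPM, and 8 monocyte markers to 136 and 213 CPM, also with 0 of the 8 at 0 UMIs. Macrophage markers summed to 73.0 and 62.6 CPM, with 1 of 9 at 0 UMIs in control. Median mitochondrial shares were 2.21% and 1.85%. Free RNA was described with the alpha-globin gene Hba-a1, which erythroid cells hold in bulk: per 1000 Hba-a1 UMIs of the MYC library, Trib3 had 4.30 UMIs in erythroid cells, and 3.16 to 21.1 over its 4 clusters. It was 5.68 in macrophages, from 33 Trib3 UMIs, 14.3 in mature neutrophils, 17.3 in immature neutrophils, 40.1 in monocytes, 52.4 in granulocyte progenitors and 58.6 in stem or multipotent progenitors. The other named classes had 0 to 11 Trib3 UMIs each and values from 0 (B progenitors) and 3.95 (T or NK cells, from 1 UMI) to 50 (plasmacytoid dendritic cells, from 4 UMIs). Asns had 10.5 in erythroid cells and 1001 in granulocyte progenitors. The part of free RNA in the Trib3 values of other classes was not tested.

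The rest of the pathway was followed with gene lists; these were drawn up with earlier results of these data known and are described by counts alone. Upstream, of 16 genes of the eIF2 kinases and of eIF2 control tested in erythroid cells, 1 was higher, Eif2s2, which encodes a subunit of eIF2 (log2 ratio 0.59), and 1 was lower, Eif2ak2, the gene of the double-stranded RNA sensor PKR (-0.99). The list's median was -0.16, and both counts are near the shares of all erythroid features, 13.9% higher and 14.8% lower. Eif2ak1, the gene of HRI, was at 174.0 CPM in control and 119.4 CPM in MYC, a log2 ratio of -0.54 (-0.65 to -0.44), lower beyond counting error but short of 1.5-fold. Eif2s3x, another eIF2 subunit gene, was at -0.58. Of the 2 genes whose products bring a phosphatase to eIF2, Ppp1r15b was at -0.54 and Ppp1r15a, which encodes GADD34, at 0.16. In the list of heme genes, 3 of 11 were lower (Fech, the enzyme that inserts iron, at -0.81, Cpox at -0.68 and Alas2, the first enzyme of heme synthesis in red cells, at -0.60), and 1 was counted higher, Hmox1, at 0.61 with an interval of -0.22 to 1.39.

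The list of leucine zipper partner genes also held Nupr1, which encodes a chromatin protein. Of its 7 genes tested, 4 were at least 1.5-fold higher and none lower, with a median of 0.59. Over all erythroid features 13.9% were higher and 14.8% lower. Nupr1, a small stress-induced chromatin protein gene, had 18 UMIs in control and 366 in MYC, a log2 ratio of 5.95 (5.27 to 6.72). Atf5, a close relative of ATF4, went from 6.49 to 77.998 CPM, a log2 ratio of 3.59 (3.32 to 3.86). Cebpb was at 1.80 and Cebpg, a dimer partner of ATF4, at 0.59.

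Downstream, genes of serine and one-carbon metabolism were higher in 5 of 7, with a median of 0.80. For this and the next 2 lists the background is all erythroid features, 13.9% higher and 14.8% lower. Psph, the last step of serine synthesis, was at 1.54 (1.28 to 1.81), Shmt2 at 1.22 and Mthfd2, a mitochondrial folate enzyme gene, at 1.21. Got1 and Aldh18a1 were at 0.80 and 0.67. Amino acid transport was mixed: 4 of 9 were higher (Slc1a4 at 2.05, the cystine carrier gene Slc7a11 at 0.97, Slc3a2 at 0.69 and Slc38a2 at 0.66), none was lower, and the median was -0.03. The list of aminoacyl-tRNA synthetases, which load amino acids onto tRNA, also held the tRNA export gene Xpot. Of its 13 genes, 5 were higher and none lower, with a median of 0.57. The 5 were Sars (0.87), Lars (0.84), Eprs (0.81), Tars (0.71) and Gars (0.66).

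Among targets of CHOP and ATF4 in stress and cell death, 5 of 12 were higher and 1 lower, with a median of 0.29. The shares over all erythroid features were 13.9% higher and 14.8% lower. Gdf15, a secreted stress cytokine, had 1 UMI in control and 101 in MYC erythroid cells, a log2 ratio of 8.26 with a counting interval of 5.75 to 13.58. Bbc3, which encodes the death-promoting protein PUMA, was at 2.19 and Vegfa at 1.56. Herpud1 and Ndrg1 were at 0.92 and 0.88. Bcl2l11, the gene of the death-promoting protein BIM and a reported CHOP target, was lower at -1.39 (-1.72 to -1.07). The members of this list thus did not share one direction.

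Chaperone and folding genes of the endoplasmic reticulum belong to the ATF6 and XBP1 arms of the unfolded protein response. Of 22 tested, 2 were higher (Ern1 at 0.88 and Sdf2l1 at 0.59) and 5 were lower (Syvn1 at -0.87, Hspa5, the gene of the chaperone BiP, at -0.78, Hsp90b1 at -0.66, Canx at -0.63 and Hyou1 at -0.62), with a median of -0.18. These counts are near the shares of all erythroid features, 13.9% higher and 14.8% lower, or 9.38% and 22.2% without the 20 most abundant genes. Glucocorticoid, hypoxia and p53 are other inputs to Ddit4 and Sesn2. Among 12 of their targets, 6 were higher, led by the p53 targets Cdkn1a at 3.84 and Phlda3 at 3.48, and 1 was lower, Sesn1, at -0.97. Of the 6, Sgk1 (-0.29 to 1.53) and Bnip3 (-0.11 to 1.41) had intervals that include 0. By cluster, Cdkn1a was at 4.22, 5.13 and 3.28 in clusters 17, 9 and 21, but at 0.47 (-1.02 to 1.78) in cluster 13. Of the 44 Phlda3 UMIs of MYC erythroid cells, 41 were in cluster 17. Of 16 immediate early and dissociation genes, 7 were higher, led by Ier3 at 2.05 and Egr1 at 1.53, and 1 was lower, the heat shock gene Hspa1b, at -3.98. What part these other inputs had in the members' values was not tested.

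**Figure D4:**
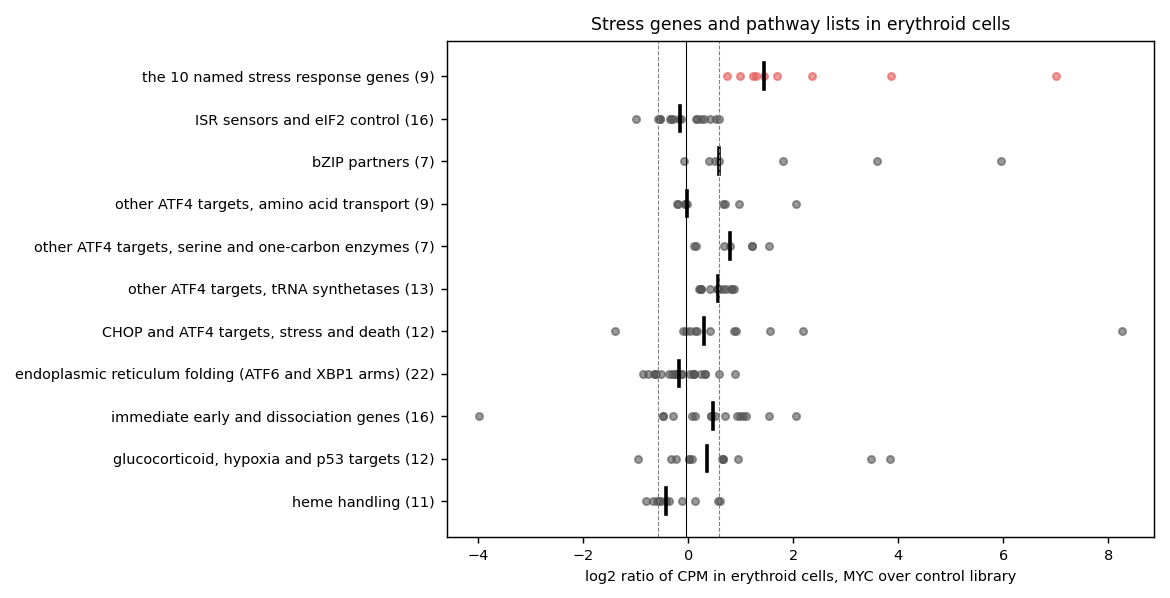
Log2 ratio of CPM in erythroid cells, MYC over control library (horizontal axis), for the 9 stress response genes and the genes of each pathway list with at least 50 UMIs; each point is a gene and the number of genes stands after each list's name. The list of leucine zipper partners, which also holds the chromatin protein gene Nupr1, reaches 5.95 for Nupr1 and 3.59 for Atf5. The list of endoplasmic reticulum folding genes has a median of -0.18.

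In monocytes, 1463 control and 1672 MYC cells, all 3 synthesis genes were higher in the MYC library. Of 10 members tested, 6 were higher and none lower, beside 8.93% and 17.4% of the 11123 features; the members' median was 0.68 and that of all features -0.15. Asns was at 5.09 CPM in control and 33.0 CPM in MYC, a log2 ratio of 2.70 (2.39 to 3.02). Phgdh went from 69.1 to 143.4 CPM, a log2 ratio of 1.05 that ran from 0.93 to 2.11 over 11 alternative settings. Psat1 and Atf4 had ratios of 0.68 and 0.67. Trib3 was at 3.29 and Chac1 at 2.36, from few UMIs in control. Ddit3, at 9.70 and 13.5 CPM, had a ratio of 0.48 and was not called. Sesn2, Atf3 and Ddit4, at -0.26, -0.06 and -0.04, had intervals that include 0. At resolution 2, under 5% mitochondrial UMIs, or with at least 1000 UMIs and 500 genes per cell, 3 rather than 6 members were called. Atf4 stood at 0.42, 0.39 and 0.46 there. The shares of all features under these 3 settings are not given here.

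The monocyte ratios were not alike in the 3 clusters. In cluster 5, the larger one, with 667 and 960 cells, Asns was at 2.83, Ddit3 at 0.89 (0.55 to 1.24), Atf4 at 0.79 and Phgdh at 0.87. In cluster 8, with 659 and 640 cells, Asns was at 1.64 and Phgdh at 2.02, whereas the interval of Ddit3 (-0.66 to 0.37) and that of Atf4 (-0.08 to 0.26) included 0. Cluster 22, with 137 and 72 cells, had too few UMIs to say more: the interval of Asns there was -0.61 to 4.25. With the clusters weighted equally the Ddit3 ratio of monocytes was -0.01. In the gene lists, 7 of 9 serine and one-carbon genes were higher in monocytes, among them Gpt2 (1.60), Psph (1.19) and Shmt2 (1.11). Of the 13 genes of the tRNA synthetase list, which also holds Xpot, 7 were higher, led by Mars at 0.99. Over all monocyte features 8.93% were higher and 17.4% lower. The amino acid carriers Slc7a5 and Slc3a2 were at 1.48 and 1.09. None of 13 CHOP and ATF4 stress and death targets was higher, and 1 was lower, Stbd1.

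In granulocyte progenitors, 792 control and 661 MYC cells, 3 of 7 members tested were higher and none lower, beside 4.88% and 24.3% of 10142 features, whose median was -0.28. Scaling to the median ratio moved all ratios up by 0.28 and the shares of features to 14.7% higher and 7.58% lower, and under it 6 members rather than 3 were higher. With cells classed by markers alone 7 were higher, but the share of all features under that classing is not given here, so nothing is read from this count. Asns went from 27.8 to 65.2 CPM, a log2 ratio of 1.23 (1.06 to 1.41), and Psat1 and Atf4 were at 0.68 and 0.62. Phgdh was just outside the threshold at 0.58, and ran from 0.49 to 1.67 over 10 alternative settings. Ddit3 was at 9.92 and 13.5 CPM, a ratio of 0.44 (0.11 to 0.78). Chac1 was at 0.56 (0.11 to 1.02), and the interval of Sesn2, at 0.27, included 0. Ddit4 had 24 and 17 UMIs and Atf3 had 6 and 1. Trib3, with 0 UMIs in control and 41 in MYC, was at least 17.1-fold higher, against a floor of 3 UMIs over the control class. Nupr1, at 3.48, Atf5, at 1.57, and Psph, at 1.22, were higher as well, and 10 of 22 endoplasmic reticulum folding genes were lower, among them Hyou1 at -0.97 and Hsp90b1 at -0.81.

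In immature neutrophils, 2285 and 2561 cells, 4 of 9 members tested were higher and none lower, beside 8.43% and 16.7% of 10117 features (15.2% and 6.79% after scaling to the median ratio, a shift of 0.21). Trib3 had 7 UMIs in control and 68 in MYC, a log2 ratio of 3.07. Phgdh was at 2.90 and 7.36 CPM, a ratio of 1.34, and Psat1 and Asns were at 1.04 and 0.66. Ddit3 was at 0.42 and Atf4 at 0.21, neither called. Chac1, Sesn2 and Ddit4 had ratios of 0.12, -0.09 and 0.27 with intervals that include 0, and Atf3 had 1 and 5 UMIs. In the partner list, which also holds Nupr1, Nupr1 was at 2.92 and Atf5 at 1.73, and among the synthetase genes Tars was at 1.5004.

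In mature neutrophils, 3790 control and 2699 MYC cells, several members were lower in the MYC library. Of 10 tested, 2 were higher (Trib3 at 1.81 and Phgdh at 0.82) and 4 were lower (Ddit3, Atf3, Chac1 and Sesn2), beside 8.01% and 21.4% of 9154 features, whose median was -0.22 (14.0% and 11.6% after scaling to the median ratio, a shift of 0.22). Ddit3 was at 39.6 CPM (36.5 to 42.8) in control and 26.1 CPM (23.4 to 28.9) in MYC, a log2 ratio of -0.60 (-0.79 to -0.41). Sesn2, which was at its highest level here in both libraries, was at 85.9 and 49.9 CPM, a ratio of -0.78 (-0.92 to -0.65). Chac1 was at 7.78 and 1.67 CPM, a ratio of -2.22 (-2.94 to -1.57), and Atf3 had a ratio of -1.23. Over 11 alternative settings the Atf3 ratio ran from -1.55 to -0.27, the latter short of 1.5-fold. Asns was at 0.49 (0.24 to 0.75) and Atf4 at -0.12 (-0.23 to -0.01), and the intervals of Psat1, at 0.26, and Ddit4, at -0.15, included 0. After scaling to the median ratio 2 members rather than 4 were lower, and Ddit3 stood at -0.38.

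The 2 libraries drew their mature neutrophils from different clusters. Cluster 2 held 2206 control and 227 MYC cells, cluster 3 held 281 and 2094, cluster 6 held 1215 and 354, and cluster 24 held 88 and 24. Within clusters, Ddit3 was lower in clusters 2 (-0.78) and 3 (-0.80), and its intervals included 0 in clusters 6 (-0.46 to 0.66) and 24 (-1.22 to 2.06). Sesn2 was at -0.61, -0.97, -0.22 and -2.04 in clusters 2, 3, 6 and 24, of which only the interval of cluster 6 includes 0. For Chac1, cluster 2 had 100 UMIs in control and 1 in MYC, and the interval in cluster 3 (-2.96 to 0.33) includes 0. Among CHOP and ATF4 stress and death targets 5 of 12 were lower in the class, led by the death-promoting gene Pmaip1 at -2.26 and by Ndrg1 at -1.49, and none was higher. Other lists differed. In the partner list 3 of 7 were higher (Nupr1 1.73, Atf5 1.43, Cebpb 0.68) and none lower. Of 7 serine and one-carbon genes 3 were higher (Got1 0.84, Psph 0.84, Shmt2 0.71) and none lower. Of 8 amino acid transport genes 2 were lower and none higher. Of 22 endoplasmic reticulum folding genes 1 was higher and 5 lower. Over all features 8.01% were higher and 21.4% lower.

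Stem or multipotent progenitors were few, 145 control and 152 MYC cells. Of 5 members tested, 2 were higher and none lower, beside 8.18% and 13.5% of 8334 features (12.5% and 8.45% after scaling to the median ratio, a shift of 0.11, and 4.85% and 21.02% without the 20 most abundant genes). The count of 2 changed with the settings: it was 7 at resolution 2, 8 with at least 1000 UMIs and 500 genes per cell, 4 under 5% mitochondrial UMIs and 1 at 2-fold. The 7 and 8 exceed the 5 members tested in the main setting, so the set tested changed as well. The shares of all features under these settings are not given here, and nothing is read from these counts. Asns went from 7.52 to 25.7 CPM, a log2 ratio of 1.77 (1.04 to 2.56), and Ddit3 from 12.9 to 24.5 CPM, a ratio of 0.93 (0.31 to 1.56). Phgdh reached its highest control level of all classes here, 200.2 CPM, and was at 257.8 CPM in MYC. Atf4 and Psat1, with ratios of 0.37 (0.11 to 0.62) and 0.36 (0.04 to 0.67), were above control by less than 1.5-fold, as was Phgdh at 0.36. The other 5 members had under 50 UMIs: 4 and 14 for Trib3, 0 and 6 for Chac1, 13 and 12 for Sesn2, 23 and 11 for Ddit4, and 1 and 0 for Atf3.

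**Figure D5:**
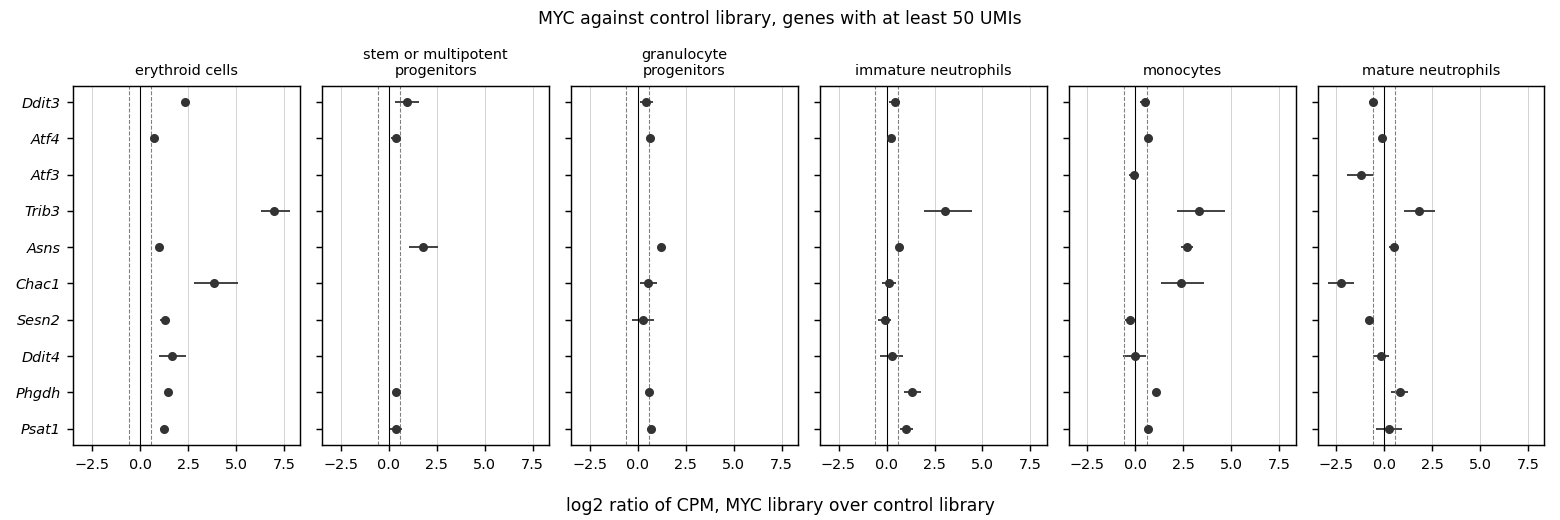
Log2 ratio of CPM, MYC over control library (horizontal axis), for each gene (vertical axis) with at least 50 UMIs in a class, 1 panel per class, with exact 95% intervals for counting error. All 9 points of the erythroid panel lie above 0, and Ddit3, Atf3, Chac1 and Sesn2 lie below 0 in mature neutrophils.

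The remaining classes with a ratio gave few calls. Conventional dendritic cells had 2 of 5 members higher (Phgdh and Psat1) and none lower, beside 15.2% of features higher and 16.8% lower. Basophils or mast cells had none of 5 called, beside 8.98% and 20.8% of features. Mature B cells had 1 of 4 higher, Phgdh, and 1 lower, Psat1, whose interval of -1.98 to 0.56 includes 0, beside 6.91% and 28.6% of features. T or NK cells had 1 of 5 lower, Ddit4, at -1.19 (-2.31 to -0.24), and none higher, beside 10.9% and 14.6% of features. Plasma cells, which secrete antibody and depend on endoplasmic reticulum folding, fell under the cell minimum with 246 and 86 cells, so only levels are given. Asns was at 32.9 CPM (28.0 to 38.3) in control and 117.5 CPM (102.2 to 134.6) in MYC plasma cells, Phgdh at 99.1 and 307.8 CPM, Psat1 at 6.86 and 33.6 CPM, and Chac1 at 7.87 and 34.1 CPM. The Ddit3 levels there, 21.4 CPM (17.5 to 25.9) and 23.5 CPM (16.9 to 31.8), overlap. The plasma cell levels were thus apart for the enzyme genes and not for Ddit3.

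Over all classes, the order of Ddit3 levels differed between the libraries. In control, mature neutrophils (39.6 CPM), erythroid cells (35.0 CPM), macrophages (34.4 CPM from 4 UMIs) and basophils or mast cells (31.6 CPM) came first and their intervals overlap with those of their neighbours. Granulocyte progenitors, monocytes and immature neutrophils were lowest, at 9.92, 9.70 and 8.78 CPM, again with intervals that overlap. In MYC, erythroid cells stood alone at 179.3 CPM, with an interval apart from all others, followed by the unnamed clusters (45.8 CPM; most of their cells were in cluster 0, which scored highest for late erythroid markers, with 2475 control and 2614 MYC cells), macrophages (36.8 CPM), T or NK cells (27.2 CPM) and mature neutrophils (26.1 CPM), each overlapping with the next. The lowest class with more than 20 cells was immature neutrophils, at 11.7 CPM. Trib3 was under 1.6 CPM in every control class, and in MYC it was 90.9 CPM in erythroid cells, 28.2 CPM in the unnamed clusters and 11.7 CPM in megakaryocytes, from 11 UMIs.

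Among the other members, Atf3 was highest in macrophages (34.4 and 49.8 CPM) and conventional dendritic cells (30.2 and 33.3 CPM), with overlapping intervals in each library and between libraries. Ddit4 was highest in basophils or mast cells among the classes with a ratio, at 37.9 CPM (29.3 to 48.3) and 29.2 CPM (21.04 to 39.5), and Asns in erythroid cells in both libraries. Atf4 was also highest in erythroid cells among the classes with a ratio, at 174.5 and 289.5 CPM.

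Over the 20 points made by 10 classes and 2 libraries, the patterns of the members were compared by Pearson's r of log2(CPM + 1) among 8902 features. The points share libraries and total depth, and r is a description. The members most like Ddit3 were Trib3 (0.67), Atf4 (0.64) and Sesn2 (0.60), followed by Asns (0.38), Ddit4 (0.28), Chac1 (0.19), Phgdh (0.09), Psat1 (0.05) and Atf3 (0.02). Among all features the 5 most like Ddit3 were Isg20 (0.84), Gtpbp2 and Ppp1r15a (both 0.80), and Gm32051 and Slc25a21 (both 0.79). The 5 most like Asns were Mpst (0.92), Gde1 (0.89), 1810058I24Rik (0.87), Syngr1 (0.85) and Ankrd9 (0.84).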

How the data were processed

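Bone marrow RNA was measured by 3′ droplet sequencing (Chromium v2 kit, NextSeq 2000, per the labels' protocols) in 1 control and 1 MYC library. The deposited matrices hold raw UMI counts per gene and barcode; per the file headers they were written by Cell Ranger, and per the submitters' processing notes the tools were Cell Ranger 6.0 and Seurat and the build was GRCm38. How reads over overlapping genes were assigned is not given in the sources used here.

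Cells with at least 500 UMIs, at least 200 genes and at most 10% mitochondrial UMIs were kept, 14903 with 121642346 UMIs in control and 12540 with 101793556 in MYC. Scrublet's own threshold marked 0 MYC cells, so a doublet score of 0.2, chosen after seeing the data, was used in both libraries (558 and 356 cells removed, 3.61% and 2.76%). Cells were clustered together with scanpy 1.11.5 (2000 variable genes, 30 principal components, 15 neighbours, Leiden resolution 1), and clusters were named by marker lists. Clusters with a median under 0.2 of their library's median UMIs stayed unnamed, a share also set after seeing the data. Where markers mixed, a cluster was split at resolution 0.3.

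UMIs were summed by class and library and divided by the class total. Ratios carry exact conditional binomial 95% intervals, levels exact Poisson intervals and shares Clopper-Pearson intervals (scipy 1.17.1); PCR duplicates were collapsed by UMI, and these intervals cover counting error only. For shares of cells, 2000 UMIs of each cell were drawn once without replacement, and cluster shares use the draw of their class. The method was tested on simulated data. No test between groups was possible with 1 library each.

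All 10 members are named in each of the 6 classes described in full, whatever their value. The rule for naming pathway genes was at least 50 UMIs, a 1.5-fold ratio and an interval without 1, at most 4 per list and class by size. Only some of the genes that passed it are named, so a gene left unnamed may have passed too. Other genes named beside a count, and those named for a level near it, were chosen after their values were seen. For likeness, features had to reach 20 CPM in at least 1 point. The members and lists were chosen with earlier results of these data known. Sequences are from RefSeq, build GRCm38.p6, and gene positions from the matching GRCm38 annotation. Alternatives were other clustering resolutions, cell filters, scalings, thresholds and thinning depths.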

Additional observations from a re-analysis of the deposited data

Results flagged for a closer look

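These 5 differences are among the classes described in full. They stand out because the MYC library was at least 1.5-fold above control in one class and at least 1.5-fold below it in another. Both counting intervals lay on their own side of 0. With 1 library per group the differences were not tested, and mature neutrophils came from different clusters in the 2 libraries. The log2 ratio of Ddit3 was 2.96 higher in erythroid cells than in mature neutrophils, and 1.53 higher in stem or multipotent progenitors than in mature neutrophils. The ratio of Chac1 was 6.09 higher in erythroid cells and 4.58 higher in monocytes than in mature neutrophils. The ratio of Sesn2 was 2.08 higher in erythroid cells than in mature neutrophils. Beyond those classes, Ddit4 met the same rule, at 1.69 (0.97 to 2.41) in erythroid cells and -1.19 (-2.31 to -0.24) in T or NK cells. The erythroid values led to the choice of Ddit3 and could have led to that of Chac1, Sesn2 and Ddit4. The differences that involve erythroid cells are therefore partly fixed by that choice.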

How the results depend on the processing

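Of 542 alternative values for 50 member ratios under 17 settings, 457 lay inside the main counting interval and 85 lay outside. Of these values, 0 turned a called ratio to the other direction. The sign was the same under every setting for 41 of the 50 ratios. Among the rest, Atf4 in mature neutrophils ran from -0.14 to 0.10 and Ddit4 in monocytes from -0.28 to 0.86. No paired analysis was possible because each group has 1 library. The erythroid Ddit3 log2 ratio of 2.36 was 2.22 with totals without the 20 most abundant genes, 2.82 as a mean over cells of each cell's CPM and 3.04 with clusters weighted equally, the last chosen after seeing the data; the count of 9 higher members ranged from 7 to 10. The count of 3 higher members in granulocyte progenitors became 7 with cells classed by markers alone, 6 with median-of-ratios scaling and 1 at 2-fold. In mature neutrophils the 2 higher became 1 at resolution 0.5 and 1 at 2-fold, and the 4 lower became 2 with median-of-ratios scaling, 2 with clusters weighted equally and 2 at 2-fold. The 6 higher in monocytes became 3 at resolution 2, 3 under 5% mitochondrial UMIs and 3 with at least 1000 UMIs and 500 genes. The 2 higher in stem or multipotent progenitors became 7 at resolution 2, 4 under 5% mitochondrial UMIs and 8 with at least 1000 UMIs and 500 genes. They became 4 with no filter and a pseudocount of 1 CPM, and 1 at 2-fold. Apart from the scalings, the shares of all features under each setting are not given beside these counts. Thinned to 1000 UMIs or not thinned, the erythroid shares of Ddit3 were 3.05% and 33.5% in control and 17.2% and 57.7% in MYC; those of Trib3 were 13.1% and 42.7% in MYC and, without thinning, 0.89% in control. The cause of these shifts was not tested. At resolution 0.5 no cluster was named stem or multipotent progenitor or conventional dendritic cell, so those values could not be given. The shares of features higher and lower in monocytes were 14.3% and 11.004% with median-of-ratios scaling, a shift of 0.15, and 5.72% and 25.4% without the 20 most abundant genes. Genes with few UMIs, such as Chac1 and Ddit4 in erythroid cells, are limited by depth.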

Other observations

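A few genes of the pathway and control lists differed in several myeloid classes. Ankrd37, a hypoxia-inducible gene, was at 0.22 CPM in control and 3.08 CPM in MYC immature neutrophils, a log2 ratio of 3.79 (2.51 to 5.45). It was at 1.24 and 6.08 CPM in mature neutrophils, a ratio of 2.29, and at 1.42 and 8.67 CPM in monocytes, a ratio of 2.61. Socs3, an inhibitor of cytokine signalling, was at 3.04 and 17.7 CPM in monocytes, a ratio of 2.54 (2.14 to 2.96). Egr1, an immediate early gene, was at 16.6 and 63.4 CPM in immature neutrophils, a ratio of 1.93, and at 1.20 in mature neutrophils, and it was lower in stem or multipotent progenitors, at -0.85 (-1.32 to -0.39). The gene of the RNA-sensing eIF2 kinase, Eif2ak2, was lower in monocytes (-0.91), in immature neutrophils (-0.69) and in mature neutrophils (-1.06) as well as in erythroid cells. These genes were singled out after their values were seen.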
